A study of Mus musculus with 2 samples.

Results

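To locate NRF1 at genes that protect muscle against reactive oxygen species, the NRF1 peaks of skeletal muscle were examined at 10 antioxidant enzyme genes, Sod1, Sod2, Cat, Gpx1, Gpx4, Prdx3, Prdx5, Txn2, Txnrd2 and Gclc, among 21000 protein-coding genes. The genes were taken as a named list of cytosolic and mitochondrial enzymes (catalase, the product of Cat, is found mainly in peroxisomes), and all 10 were found in the RefSeq annotation of mm10. A peak was assigned to a gene when its summit, the base of highest signal, lay between 1000 bp before and 100 bp after any known start of that gene. The data are chromatin immunoprecipitation sequencing (ChIP-seq) of skeletal muscle of wild-type mice, 9 weeks old by the study's account, and the labels name no treatment. Muscle lysates were fixed, and nuclei were then collected for the immunoprecipitation. The series holds 2 libraries, both labelled with the NRF1 antibody, but the study's reporting summary lists the library of replicate 2 as input DNA. A single peak list, whose peaks are named after the library of replicate 1, was deposited, so no value below has a replicate error. Whole muscle also holds nuclei of other cell types, and peaks of a DNA-binding protein do not show which nuclei they came from. The identity of the tissue rests on the label, since a peak list has no expression of marker genes.

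Nuclear respiratory factor 1 (NRF1) activates genes for the respiratory chain and for mitochondrial maintenance. It is a different protein from the similarly named NFE2L2 (often called NRF2) and NFE2L1, which bind the antioxidant response element and induce many antioxidant enzymes. Superoxide that leaks from the respiratory chain is turned into hydrogen peroxide by superoxide dismutases, and catalase, glutathione peroxidases and peroxiredoxins then remove the peroxide. Peroxiredoxins are recharged by thioredoxin and thioredoxin reductase, and glutathione peroxidases use glutathione, whose synthesis starts with the glutamate-cysteine ligase.

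NRF1 peaks were present at the promoters of Gpx4 and Gclc and at none of the other 8 genes. Gpx4 encodes the glutathione peroxidase that reduces lipid hydroperoxides in membranes, and its promoter peak had a fold enrichment of 23.3. This value divides the reads at the summit by those that the control library predicts there. Gclc encodes the catalytic subunit of the glutamate-cysteine ligase, and its peak had a fold enrichment of 7.39. The 2 of 10 genes make 20.0%, beside 13.4% of all protein-coding genes with a promoter peak. Superoxide dismutases, catalase, both peroxiredoxins, Gpx1 and both mitochondrial thioredoxin genes had no promoter peak in the list.

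The sequences around both summits show how the genes differ in their match to the NRF1 palindrome GCGCATGCGC. They run 5′ to 3′ on the plus strand, along transcription, in mm10. Capitals mark every site within 2 mismatches of the palindrome. The Gpx4 stretch is chr10:80053385-80053564 and ends 1 base before the first coding start. The Gclc stretch is chr9:77754455-77754560 and runs from -80 to 25 bp from the start.
Gpx4: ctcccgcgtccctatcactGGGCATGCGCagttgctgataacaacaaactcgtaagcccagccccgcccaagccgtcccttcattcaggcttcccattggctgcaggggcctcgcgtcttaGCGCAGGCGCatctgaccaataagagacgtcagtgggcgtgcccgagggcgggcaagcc
Gclc: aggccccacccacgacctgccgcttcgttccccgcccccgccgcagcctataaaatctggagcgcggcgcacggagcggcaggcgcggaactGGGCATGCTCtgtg

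The Gpx4 peak was among the stronger promoter peaks of the list. It spanned 409 bp on chromosome 10, from 80053225 to 80053633, with its summit at 80053508 and a −log10 q of 85.4. Of 2607 promoter peaks, 192 had a higher fold enrichment, and 92.6% had a lower one. Gpx4 is transcribed from several starts, which yield the mitochondrial, cytosolic and nuclear forms of the enzyme, and RefSeq lists 4 known starts on the plus strand. The summit lay 57 bp before the coding start at 80053565, at -151 bp from that at 80053659 and at -503 bp from that at 80054011. It thus fell within the promoter window of all coding starts of the gene. The remaining start, at 80047166, belongs to a non-coding transcript, and the summit lay in an intron of that transcript, 6342 bp after its start. No start of another gene was found within 1000 bp of this summit, so Gpx4 was the only gene to which the peak was assigned.

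Both palindrome-like sites before the Gpx4 start carried 1 mismatch. The nearer site, GCGCAGGCGC, lay at 80053506 to 80053515 and was centred 2.50 bp from the summit. It differed from the palindrome by T6G, counted from 1 at the 5′ end of the palindrome. This form of the site, counted on both strands, was common among NRF1 peaks: it was present within 100 bp of the summit at 610 promoter peaks, or 23.4%, whose median fold enrichment was 13.7. It occurred in promoters of 857 protein-coding genes, and 84.0% of those genes had a promoter peak. The other site, GGGCATGCGC, carried C2G and lay at 80053404 to 80053413, with its centre 99.5 bp from the summit and inside the peak. It was present near 40 promoter peaks and in promoters of 83 genes, of which 54.2% had a promoter peak. Among promoter peaks with a motif, 89.9% had a lower fold enrichment than the Gpx4 peak.

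The Gclc peak was weaker and narrower. It spanned 136 bp on chromosome 9, from 77754473 to 77754608, which was the smallest width in the whole list and was shared by 41 promoter peaks. Its summit at 77754517 lay 18 bp before the start at 77754535, just upstream of the first exon. The −log10 q was 9.82, and 20.6% of promoter peaks had a lower fold enrichment. The Gpx4 peak was 3.16 times as enriched, a ratio that carries no error because each peak has 1 value. No start of another gene lay within 1000 bp of the Gclc summit.

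No site with at most 1 mismatch was found at the Gclc summit. The closest site, GGGCATGCTC, carried C2G and G9T, began 12 bp after the start, in the first exon, and was centred 34.5 bp from the summit. That form was present near 19 promoter peaks and in promoters of 91 genes, of which 24.2% had a promoter peak. The peak belonged to the 888 promoter peaks without the motif within 100 bp of the summit. Those had a median fold enrichment of 8.58, with a lower quartile of 6.30, and 37.0% of them were below the Gclc peak. The 1719 promoter peaks with the motif, 65.9% of all, had a median of 12.9.

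**Figure D1:**
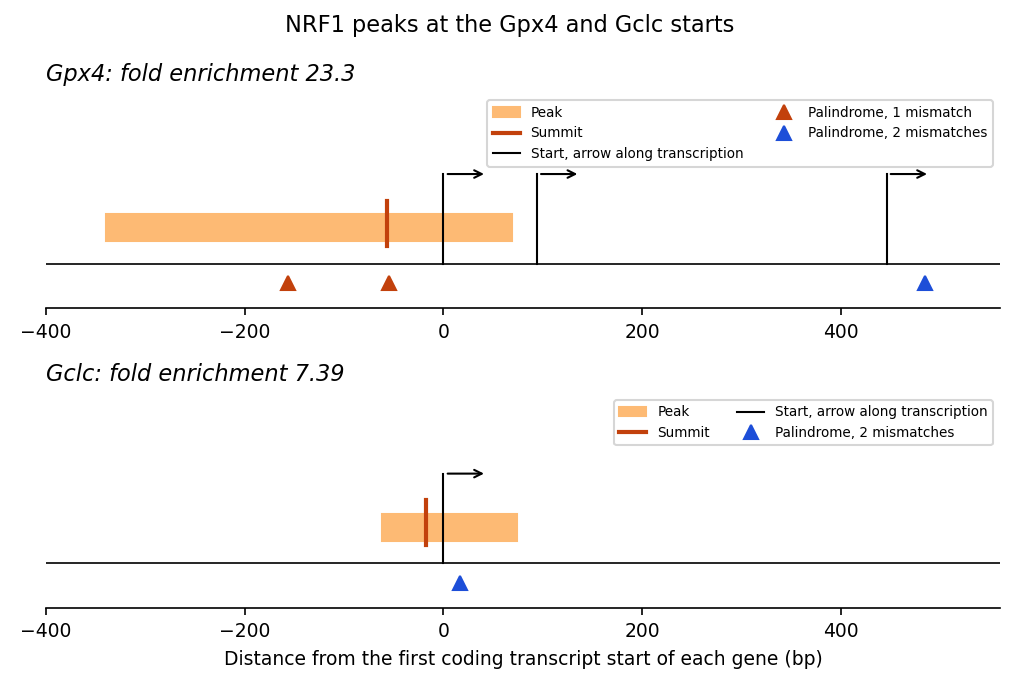
NRF1 peaks at Gpx4 and Gclc by distance in bp from the first coding start of each gene, with the peak as a bar, its summit as a line, the starts as arrows and sites of the palindrome as triangles. The Gpx4 summit sits on a site with 1 mismatch, 57 bp before the start, while the narrow Gclc peak of 136 bp has only a site with 2 mismatches.

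**Figure D2:**
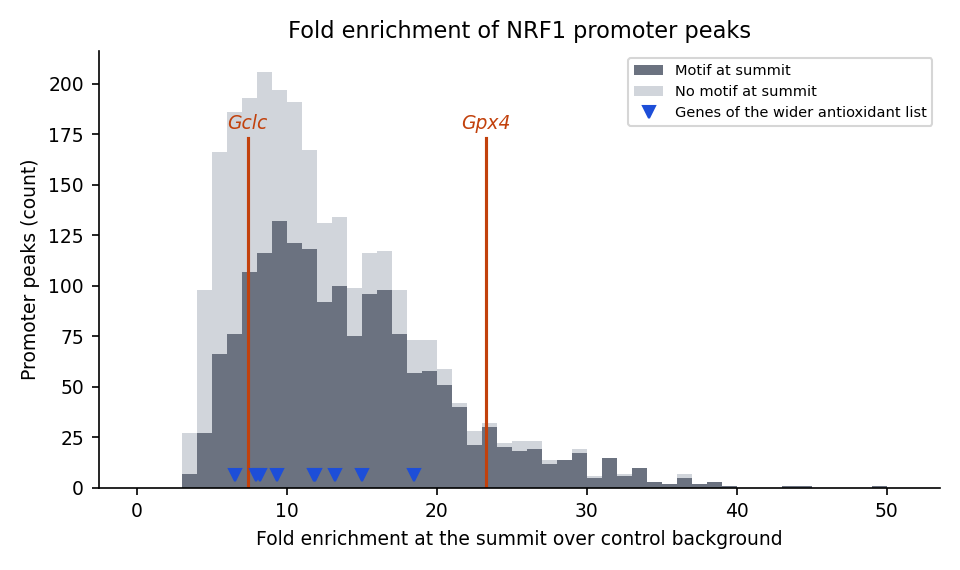
Histogram of the fold enrichment of all 2607 promoter peaks in steps of 1, split by the motif within 100 bp of the summit, with lines at Gpx4 and Gclc and triangles at the 9 genes of the wider antioxidant list. Gpx4, at 23.3, lies in the upper tail and Gclc, at 7.39, below the median of 11.1.

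The superoxide dismutase genes had no NRF1 promoter peak. Sod1, which encodes the copper-zinc enzyme of the cytosol, starts at 90220762 on chromosome 16, plus strand, and its nearest summit was 506627 bp away, at a peak enriched 17.3-fold in the promoter of Mis18a. Sod2, which encodes the manganese enzyme of the mitochondrial matrix, starts at 13007839 on chromosome 17, plus strand. The summit nearest to it was 47053 bp away, at the promoter of Acat2, a thiolase gene, and had a fold enrichment of 19.0. The Sod1 promoter held 1 site with 2 mismatches, GCGCACGCGG, at -282 to -273 bp, and the Sod2 promoter held no site closer than 3 mismatches. The Sod1 form, which carries T6C and C10G, was found in promoters of 82 genes, and 30.5% of those had a promoter peak.

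Catalase and Gpx1 were likewise without a promoter peak. Cat starts at 103485153 on chromosome 2, minus strand, and its nearest summit was 276151 bp away, at a peak enriched 11.4-fold in the promoter of Nat10. Gpx1, the abundant glutathione peroxidase of cytosol and mitochondria, starts at 108339080 on chromosome 9, plus strand. Its nearest summit, 32974 bp away, was a strong peak with a fold enrichment of 24.8 in the promoters of Rhoa, a small GTPase gene, and Tcta. So the paralogs Gpx1 and Gpx4 differed, with a peak of similar fold enrichment at the Gpx4 start and at a neighbour of Gpx1. Neither Cat nor Gpx1 held a site closer than 3 mismatches, and these were the only 2 of the 10 genes without a CpG-rich promoter.

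The peroxiredoxin genes came closest to a peak among the 8. Prdx5, whose product works in mitochondria, peroxisomes and cytosol, starts at 6910106 on chromosome 19, minus strand. The summit nearest to it was 11807 bp away, at a peak enriched 26.1-fold in the promoter of Esrra, the gene of the nuclear receptor ERRα, which acts on mitochondrial genes. Prdx5 shares its start region with Trmt112, which is transcribed in the opposite direction from a start 408 bp away, and Trmt112 had no promoter peak either. The Prdx5 promoter held 1 site with 2 mismatches, GCACAAGCGC, at -344 to -335 bp, with G3A and T6A. That form was near 2 promoter peaks of the list and in promoters of 32 genes, of which 8 had a promoter peak. Prdx3, the peroxiredoxin of the mitochondrial matrix, starts at 60874538 on chromosome 19, minus strand, and its best site had 4 mismatches. A peak with a fold enrichment of 7.56 lay 15612 bp from that start, in the non-coding part of an exon of Grk5 and outside any promoter window.

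The thioredoxin pair of the mitochondrion showed the same. Txn2, the mitochondrial thioredoxin gene, starts at 77928994 on chromosome 15, minus strand, and its nearest summit, with a fold enrichment of 8.67, was 41705 bp away in the non-coding part of an exon of Eif3d. Txnrd2, which encodes the reductase that recharges this thioredoxin, starts at 18426417 on chromosome 16, plus strand. Its nearest summit was 72362 bp away, at a peak enriched 17.2-fold in the promoter of Gnb1l. Both thioredoxin genes had CpG-rich promoters, and neither held a site closer than 3 mismatches.

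Across the 8 genes without a promoter peak, the nearest summit was between 11807 and 506627 bp away, with a median of 44379 bp. Hence no summit lay just beyond the promoter window at any of these genes. For all 18192 protein-coding genes without a promoter peak the median was 186975 bp, with quartiles of 58885 and 585252 bp. That set was not matched to the 8 genes by CpG-rich promoters, and the difference in distance was not tested. Read depth is unknown from a peak list, so weak occupancy that missed the threshold of the peak caller was not detectable here.

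**Figure D3:**
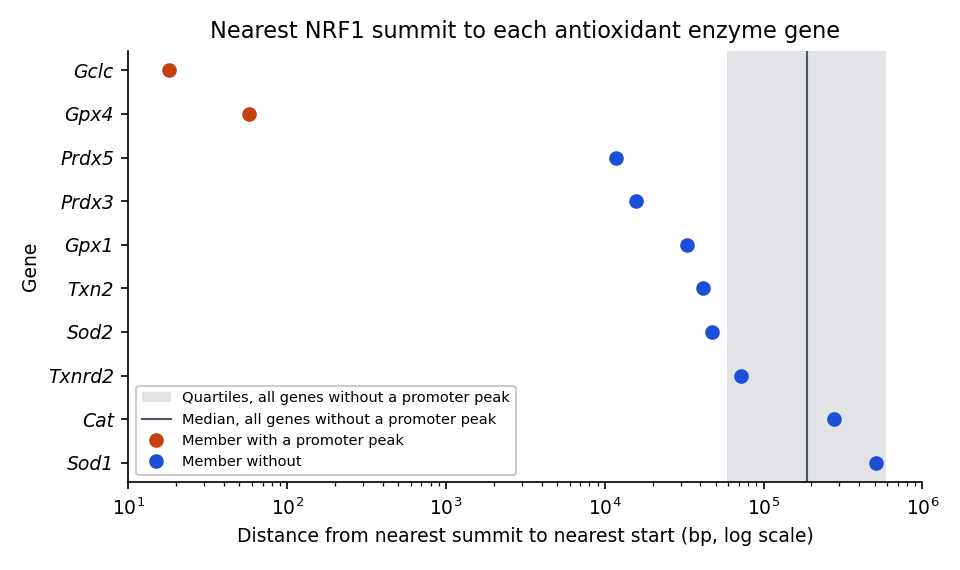
Distance in bp, on a log scale, from the nearest NRF1 summit to the nearest start of each of the 10 genes, with the quartiles and the median of all protein-coding genes without a promoter peak in grey. Gclc and Gpx4 lie at 18 and 57 bp, and the next gene, Prdx5, at 11807 bp.

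The presence of a peak was then set beside the best match to the palindrome in the promoters of each gene. Any site with at most 1 mismatch was present in promoters of 12.1% of all protein-coding genes. Among all genes with an exact palindrome 89.4% had a promoter peak, against 73.0% with 1 mismatch, 13.9% with 2 and 1.16% with 3 or more. No antioxidant enzyme gene held the exact palindrome. Gpx4 was the only gene of the 10 with a best match of 1 mismatch, and it had a peak. Of the 3 genes whose best match had 2 mismatches, Sod1, Prdx5 and Gclc, only Gclc had a peak. The 6 genes with 3 or more mismatches, Sod2, Cat, Gpx1, Prdx3, Txn2 and Txnrd2, had none.

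**Figure D4:**
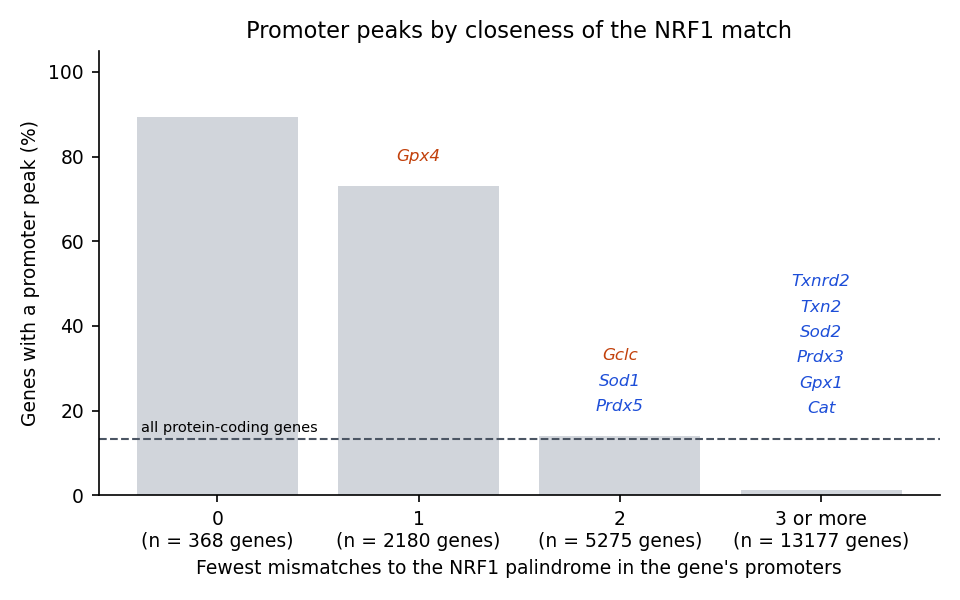
Bars give the percentage of protein-coding genes with a promoter peak by the fewest mismatches to the palindrome in their promoters, from 89.4% with no mismatch to 1.16% with 3 or more, and the dashed line gives 13.4% for all genes. The 10 gene names stand over their class, and their height carries no value; names with a promoter peak are in orange (Gpx4, Gclc) and the others in blue.

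The genes were also compared by the base composition of their promoters. A promoter was counted as CpG-rich when the stretch from 250 bp before to 50 bp after a start had a GC content of at least 55% and a ratio of observed to expected CpG of at least 0.65. Among all genes with such a promoter 25.8% had a promoter peak, and among the rest 4.28%. Of the 10 antioxidant genes 8 were CpG-rich, and 2 of these 8 had a peak, a share close to that of all CpG-rich genes. The CpG ratio was 1.01 at the first coding start of Gpx4 and 0.943 at Gclc, but it was 1.02 at Sod1, which had no peak. Txn2, Prdx3 and Sod2 were near the limit, with CpG ratios of 0.674, 0.653 and 0.690.

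The antioxidant response element was searched as TGACNNNGC on both strands of the same promoter windows. It was found at 4 of the 10 genes, Sod1, Sod2, Gpx4 and Txnrd2, and in promoters of 36.4% of all protein-coding genes. At Gpx4 the match lay at -967 to -959 bp from the first coding start, outside the NRF1 peak. No match was found in the Gclc window. A match of these letters is a description of the sequence, and absence concerns this window alone.

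Genes that work with these enzymes were examined with the same rule in a wider list of 46 genes. A promoter peak was present at 9 of them, or 19.6%, beside the 13.4% of all protein-coding genes. Among the 26 with a CpG-rich promoter it was 7, or 26.9%, beside 25.8%. The median fold enrichment of the 9 peaks was 11.8, from 6.54 at Prdx6 to 18.5 at Pstk, while all promoter peaks had a median of 11.1. A motif with at most 1 mismatch lay at 5 of the 9 summits, or 55.6%, beside 65.9% of all promoter peaks. By the best match in the promoters, peaks were present at 2 of 2 genes with the exact palindrome, 3 of 3 with 1 mismatch, 3 of 12 with 2 and 1 of 29 with 3 or more.

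In the group for the synthesis of selenoproteins, 2 of 5 genes had a peak, beside 13.4% of all genes. Their best matches were the exact palindrome (Sepsecs) and 1 mismatch (Pstk), classes in which 89.4% and 73.0% of all genes had a peak. Glutathione peroxidases such as GPX1 and GPX4 and the thioredoxin reductases carry selenocysteine, which is made on its transfer RNA by the kinase encoded by Pstk and then by the synthase encoded by Sepsecs. The Pstk summit lay 2 bp before the start, with a fold enrichment of 18.5, and the Sepsecs summit 109 bp before it, with 13.2. Sephs2, Secisbp2 and Eefsec had no promoter peak. Genes of the thioredoxin system (4 genes), further glutathione peroxidases (6) and methionine sulfoxide reductases (4) had none either.

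The remaining peaks of the wider list fell singly in several groups. Gss, which encodes the synthase of the second step of glutathione synthesis after Gclc, had a summit 53 bp after its start and a fold enrichment of 9.36, whereas Gclm and Gsr had no promoter peak. Ccs, the copper chaperone gene of the cytosolic superoxide dismutase, had a peak with a fold enrichment of 11.9 that it shared with Ccdc87. Prdx6 had a summit 39 bp after its start, and Glrx3, a glutaredoxin gene, had one 32 bp after it with a fold enrichment of 7.97. G6pdx, which encodes the first enzyme of the pentose phosphate pathway and so a source of NADPH, had a peak with a fold enrichment of 8.22, shared with Ikbkg. The sestrin gene Sesn1 shared a peak with Cep57l1, and its summit was 678 bp before the start with a fold enrichment of 15.0. Mafg, a small Maf partner of NFE2L2, had a peak with a fold enrichment of 11.8 that it shared with Gm17586.

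In the antioxidant response group, 1 of 7 genes (Mafg) had a promoter peak, beside 13.4% of all protein-coding genes, and the others had none. Nfe2l2 was 1793370 bp from its nearest summit, Bach1 was 258467 bp, Nfe2l1 was 34798 bp and Keap1, which encodes the inhibitor of NFE2L2, was 18705 bp away. At Nqo1 and Hmox1, inducible genes of that response, the distances were 21869 and 1808693 bp. Msra, a gene singled out after its values were seen, had a summit 337 bp after a start, beyond the promoter window, with a fold enrichment of 13.3.

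The sites at the summits of the wider list are shown to set them beside those of Gpx4 and Gclc. Each is 30 bases of mm10, read along transcription of the gene, with the site in capitals, and the exact palindrome stood at Sesn1 and Sepsecs.
Sesn1: accgcggaaaGCGCATGCGCcctggccggc
Sepsecs: agacggctctGCGCATGCGCggaagtcgaa
Pstk: ctggggcactGCGCCTGCGCacccggcgca
Ccs: ctgcatcaatGCGCCTGCGCagccggtagc
Gss: ggggcggtctGCGCAGGCGCactgggtcgt

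The Sesn1 site lay on chromosome 10 from 41809908 to 41809917, plus strand, and the Sepsecs site on chromosome 5 from 52669796 to 52669805, minus strand. The Pstk site lay on chromosome 7 from 131371127 to 131371136, plus strand, and the Ccs site on chromosome 19 from 4839405 to 4839414, minus strand, both with A5C. The Gss site, on chromosome 2 from 155592779 to 155592788, minus strand, carried T6G. As the palindrome is its own reverse complement, A5C on 1 strand is T6G on the other, so the sites at Pstk, Ccs and Gss are the same double-stranded form as the site under the Gpx4 summit. Their centres were between 8.50 bp from the summit, at Ccs, and 26.5 bp, at Gss. Mafg and Prdx6 had sites with 2 mismatches near their summits, and Glrx3 and G6pdx had none within 2 mismatches.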

How the data were processed

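By the methods of the study, single-end reads were aligned to mm10 with Bowtie by the authors, who kept unique alignments, removed blacklisted regions and called peaks with MACS2 against input DNA. Unique mapping removes signal in repeats, and the methods name a human blacklist and the broad option, whereas the list has narrow-peak layout. The deposited fold enrichment is a ratio of summit signal to control background, and the deposited q-values are given as −log10 q. The summit is a distance from the peak start. Neither depth nor replicate spread can be had from the list of 3226 peaks, and no test was run. The study reports a smaller number of NRF1 binding sites, so this list is not identical to its peak set.

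Known RefSeq transcripts of GRCm38.p6 (NM and NR accessions) gave 31603 starts, and sequence was read from that assembly with pysam 0.24.0. The palindrome was searched on both strands with at most 1 mismatch within 100 bp of each summit, and in the windows from 1000 bp before to 100 bp after all starts. Motif search and distances were tested on simulated data. Alternatives changed window, overlap, threshold, starts and mismatches. The 10 genes were named throughout. Of the wider list, every gene with a promoter peak was named, and some genes without one were named by choice. Both lists were chosen with earlier results of these data known.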

Additional observations from a re-analysis of the deposited data

How the results depend on the processing

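Gpx4 and Gclc were the genes of the 10 with a promoter peak under all 7 alternatives run, which were 2 other promoter windows, any overlap of at least 1 bp, a q of at most 1e-05, a fold enrichment of at least 5, predicted transcripts and, chosen after seeing the data, GENCODE M21 basic starts. The median fold enrichment of their 2 peaks was 15.4 under each of the 3 alternatives run for it. It could not have changed: both peaks exceed those limits, and the other 8 genes had no summit closer than 11807 bp. In the wider list the count lay between 8 and 10: Msra entered with either other window or with overlap, Sesn1 left with 500 bp either side of the start, and G6pdx left with GENCODE starts. The motif counts depended on the mismatches allowed. With no mismatch, 0 member peaks and 0 member promoters held the palindrome. With at most 2 mismatches, 2 member peaks and 4 member promoters did, where 1 of each had been counted, because the definition is wider.

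Leaving out each replicate was not possible with 1 peak list. No paired analysis was possible because the labels put both libraries in 1 group, whereas the reporting summary names replicate 2 as input DNA, and there is 1 list of peaks. Unknown depth limits each statement on genes without a peak.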
